A study of Mus musculus with 38 samples.

Results

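The response shared by propiconazole and triadimefon, a pair of triazole fungicides, was described in mouse liver over 2 feeding times. It was read from all 18 arrays of the conazole experiment, out of 38 arrays in the series. The arrays fell into 6 groups of 3 males of the outbred stock CD-1, aged 6 to 8 weeks per the labels. For 4 or 30 days the mice received control feed, propiconazole at 2500 ppm (349.6 ± 46.7 mg/kg/day) or triadimefon at 1800 ppm (257.1 ± 33.5 mg/kg/day), a compound the labels spell tridimefon. Each animal gave 1 array of whole liver RNA, and the label of every array names it as a biological replicate. The pooled triazole effect is the mean of the 4 treated groups minus the mean of the 2 control groups, each day weighing equally. It compares 12 treated with 6 control arrays and was fitted with limma for 17477 genes. A gene is called where the Benjamini-Hochberg adjusted p over all these genes was under 0.05. The response shared by the compounds and days consists of called genes whose change against the same-day control had 1 sign in all 4 treated groups. Values are log2(intensity + 16), so that 4 is the lowest value possible, and a change means treated minus control in these log2 values, which understates the change of dim genes. Because the doses differed, the values of the compounds are given side by side and no test was made between them.

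Triazole fungicides block the sterol demethylase CYP51 of fungi by binding the heme iron of the enzyme. In mammalian liver, many lipophilic chemicals activate the nuclear receptors CAR (Nr1i3) and PXR (Nr1i2). These receptors bind DNA as partners of the retinoid X receptor and switch on genes for oxidation by cytochromes P450, for conjugation and for efflux. Cyp2b10 is the usual marker of CAR activity in mice, and phenobarbital is its reference activator. Heme for new P450 enzymes is supplied by a pathway whose rate-limiting enzyme in liver is Alas1.

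The promoters of 5 of the genes with a shared rise are shown as examples: the P450 genes Cyp2b10, Cyp2c55, Cyp2c65 and Cyp2c37 and the glutathione S-transferase Gstm3. Each line gives the 150 bases before the transcription start, 5′ to 3′ on the strand of the gene, from RefSeq on GRCm38.p6, with matches to the motifs below in capitals. The intervals are chr7:25897508-25897657 (plus strand) for Cyp2b10, chr19:39006869-39007018 (plus) for Cyp2c55, chr19:39060856-39061005 (plus) for Cyp2c65, chr19:39992274-39992423 (plus) for Cyp2c37 and chr3:107969175-107969324 (minus) for Gstm3.
Cyp2b10: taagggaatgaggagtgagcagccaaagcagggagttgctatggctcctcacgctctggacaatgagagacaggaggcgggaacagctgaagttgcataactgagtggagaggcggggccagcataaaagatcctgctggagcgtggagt
Cyp2c55: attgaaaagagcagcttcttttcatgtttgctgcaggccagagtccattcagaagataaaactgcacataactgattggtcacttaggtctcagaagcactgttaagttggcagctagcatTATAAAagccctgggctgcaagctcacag
Cyp2c65: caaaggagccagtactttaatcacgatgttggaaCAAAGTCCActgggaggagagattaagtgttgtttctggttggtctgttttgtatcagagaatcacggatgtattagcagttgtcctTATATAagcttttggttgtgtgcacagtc
Cyp2c37: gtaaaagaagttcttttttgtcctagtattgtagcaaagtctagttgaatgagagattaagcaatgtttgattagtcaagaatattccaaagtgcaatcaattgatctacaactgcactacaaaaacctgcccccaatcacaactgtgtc
Gstm3: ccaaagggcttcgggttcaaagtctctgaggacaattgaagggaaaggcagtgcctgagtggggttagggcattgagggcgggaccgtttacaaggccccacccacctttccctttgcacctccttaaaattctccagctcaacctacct

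Motifs were searched on both strands in 300 bases, from 250 before to 50 after each start, for the 13819 tested genes that had a promoter in the reference table. The motifs were the nuclear receptor hexamer (AGGTCA or AGTTCA), 2 such hexamers in a row with NNNN between them (direct repeat 4), the HNF4 type (CAAAGTCCA or CAAAGTTCA), the TATA type (TATAAA or TATATA) and the antioxidant response core (TGACNNNGC). The hexamer can overlap the HNF4 type. Cyp2c55 and Cyp2c65 each held a TATA type match at position -29 from the start, and Cyp2c65 held an HNF4 type match at -116 and another TATA type match at -162, beyond the bases printed. A gene counted as holding a motif if any of its starts did, so genes with more starts had more chances of a match. The TATA type was held by 13.8% of all these genes, against 17.38% of 374 genes with a shared rise and 13.53% of 303 with a shared fall. The HNF4 type was in 1.06%, 1.6% and 1.98% of the same sets, and the antioxidant response core in 16.19%, 18.45% and 15.51%. For the hexamer the shares were 26.43%, 23.53% and 27.39%. Direct repeat 4 was held by 4 genes of all, and by none of either set. These are counts of letters in a short window near the start, given as a description.

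The shared response comprised 856 genes (4.9% of all tested), of which 492 were higher and 364 lower under the triazoles, 2.82% and 2.08% of all genes tested. The pooled effect alone called 513 genes higher (2.94%) and 383 lower (2.19%), and 40 of these 896 (5.13%) did not have 1 sign in all 4 groups. The median pooled change was 0.68 over the genes with a shared rise and -0.60 over those with a shared fall, beside 0.0099 over all genes. More than 2-fold changes made up 109 of the rises and 65 of the falls. In 169 of the genes that rose every control array was at or below background, and in 99 of those that fell every treated array was. Background was taken from 38 olfactory receptor genes, as a log2 value of 7.03. Treated and control arrays did not overlap on either day for 157 of the shared rises and 92 of the shared falls, while over all genes this held for 164 upward (0.938%) and 122 downward (0.698%). Without propiconazole day 4 replicate 2 it held for 1.12% and 0.91%. The number of calls moved with single arrays. The pooled total of 896 became 1474 without propiconazole day 4 replicate 2 and 1450 without replicate 3 of that group. It became 419 and 469 without day 4 control replicates 1 and 2, and 536, 572 and 458 without day 30 control replicates 1, 2 and 3.

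Among the 18 arrays, propiconazole day 4 replicate 2 stood apart. Its Gapdh 3′ control probe set exceeded the 5′ one by 6.39 on the log2 scale, while the other arrays had differences of -0.12 to 0.22. It correlated with the other arrays of its group at a mean r of 0.79, against 0.95 or more within the other 5 groups. Replicates 1 and 3 of its group had a mean r of 0.86 each, which includes their correlation with replicate 2. The Actb 3′ excess ran from 0.62 to 1.84 on day 4 and from 0.35 to 0.47 on day 30. Without propiconazole day 4 replicate 2 the pooled effect called 4.19% of all genes higher and 4.24% lower. With 1 sign in all 4 groups, 692 were called higher (3.96%) and 678 lower (3.88%). Of the 492 and 364 genes of the full fit, 477 and 354 were again called with 1 sign. The summed level of 13 hepatocyte identity genes lay between 16.53 and 16.74 on all 18 arrays, with 12 of the 13 above background. Such a sum is carried by its brightest members and shows little of the others. In bulk RNA, fewer cells of a type and less RNA per cell cannot be told apart.

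**Figure D1:**
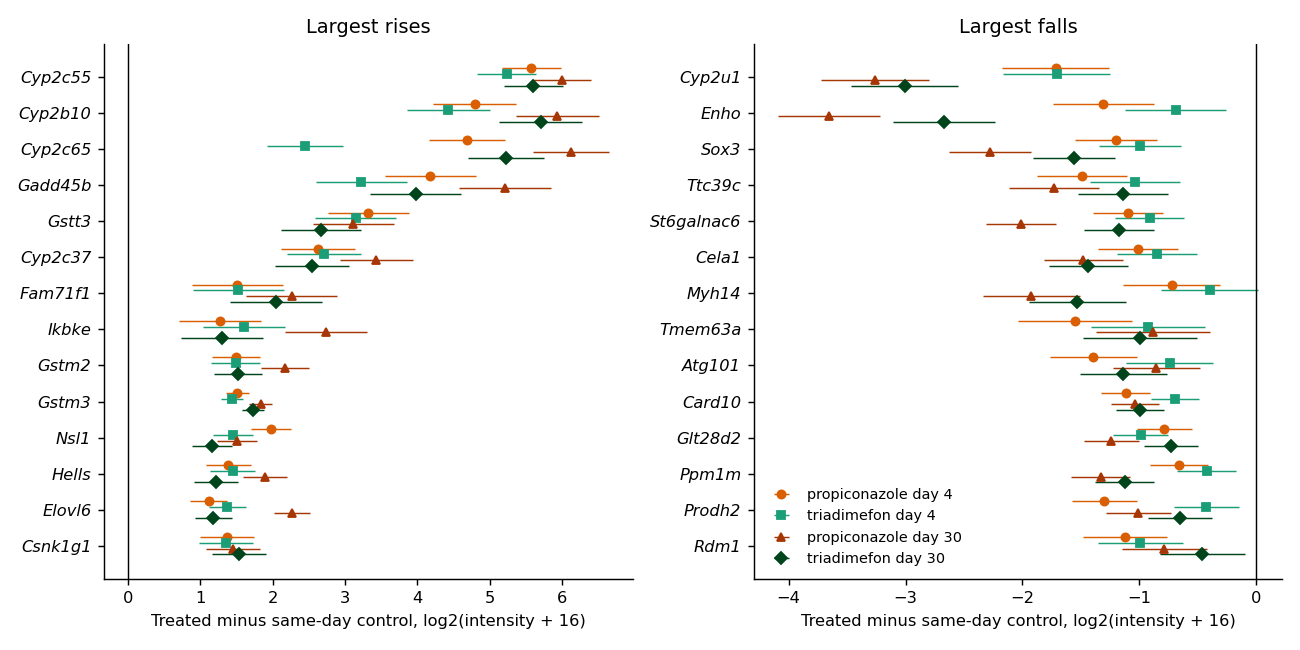
Change of each treated group against its same-day control, on the log2(intensity + 16) scale, for the 14 genes with the largest rises and the 14 with the largest falls that met the naming rule. Symbols give the mean difference of 3 against 3 mice and bars its standard error. The naming rule itself required all 4 symbols of a gene to lie on the same side of 0. The rises of Cyp2c55 run from 5.24 to 6.00.

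The largest rises of the shared response were in cytochromes P450 of the CYP2B and CYP2C families, which oxidise drugs, steroids and fatty acids. Cyp2c55 rose by 5.60 ± 0.25 (SE; 48.6-fold; adjusted p 1.04e-08, limma) and Cyp2b10 by 5.22 ± 0.35 (37.3-fold; adjusted p 9.33e-07). The 3 Cyp2b10 probe sets above background all had higher means in treated mice, by 5.22 to 7.60, and the values given are those of the brightest, which changed least. Of the 6 controls, 4 were above background for Cyp2b10 and 3 for Cyp2c55. On day 4 Cyp2b10 read 8.97, 7.97 and 7.69 in controls, 13.05, 13.11 and 12.86 with propiconazole and 12.89, 12.98 and 12.05 with triadimefon. On day 30 it read 6.44, 5.84 and 9.05 in controls, 13.03, 13.05 and 13.07 with propiconazole and 12.85, 12.88 and 12.73 with triadimefon. Every treated liver thus stood above every control liver. The treated values lay near the top of the scale, where the highest mean of any gene was 13.65 and 51 genes (0.292%) had a mean over 13, so their spread there and the size of the rise may be understated. Cyp2c55, an enzyme of arachidonic acid oxidation, read 5.95 to 7.86 in controls and 11.56 to 12.93 in treated mice, again without overlap. Cyp2c65 read 4.00 to 4.25 in all controls and 5.01 to 10.65 in treated mice. Its controls were below background, so that the rise was at least 3.19-fold (adjusted p 1.16e-06). Of the 4 groups, triadimefon day 4 had the smallest Cyp2c65 change at 2.44, beside 4.69 with propiconazole that day and 6.12 and 5.23 on day 30.

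Of 20 measured members of the CYP2B, CYP2C and CYP3A list, 10 rose and none fell, beside 2.94% and 2.19% of all genes. The list's median pooled change was 0.62. Cyp2c37 rose by 2.83 ± 0.31 (adjusted p 1.73e-04), with controls at 5.76 to 7.80, of which 2 of 6 were above background, and treated mice at 8.25 to 10.61. Cyp2c54 rose by 1.42 and Cyp2c50 by 0.71, and both were called in each of the 4 changes. Cyp3a44, named a female-biased gene in mouse liver, rose by 0.91 (adjusted p 0.00539). Cyp2b9 and Cyp2b13, further genes with female-biased expression, rose by 1.76 and 1.39. For Cyp2b9 2 of 6 controls and 9 of 12 treated arrays were above background. Cyp2b13 was below background in all 6 controls and on all treated arrays except the 3 of propiconazole day 30, which read 8.87 to 10.78. Cyp2b13 lost its call under a model of day plus treatment (adjusted p 0.204). The call of Cyp2b9 was lost in 6 of 31 other settings, 4 of them leaving out 1 control array, with an adjusted p of up to 0.0733 without day 30 control replicate 1. Cyp2c29 rose by 0.14, a call lost in 21 of the 31 other settings. Cyp3a11, the main PXR responsive CYP3A enzyme, had a pooled change of 0.0070 ± 0.040 (SE; adjusted p 0.941), with all 18 arrays between 12.97 and 13.18. These values lie in the same top range, so the limit on a visible rise applies to Cyp3a11 too. Members of these families are close paralogs, and a probe set can read more than 1 of them.

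**Figure D2:**
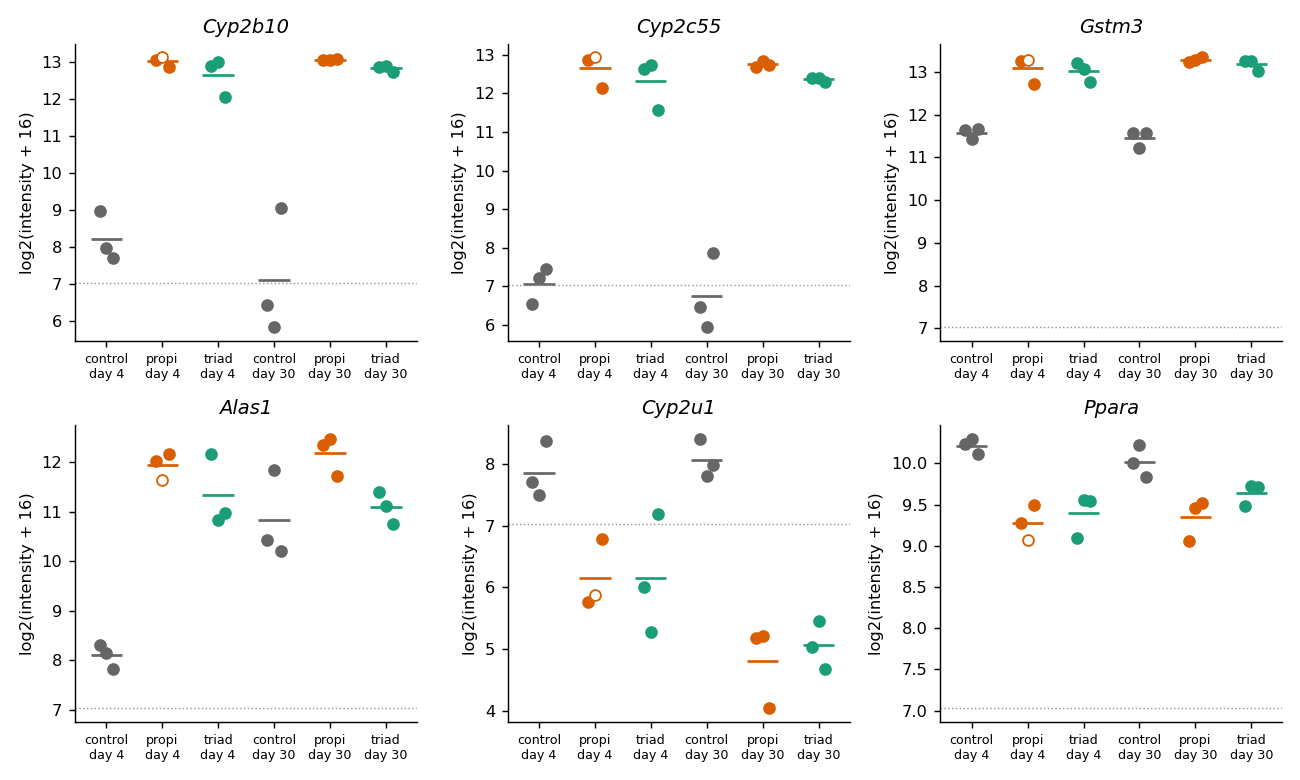
Level of 6 genes on each of the 18 arrays, as log2(intensity + 16), by group; horizontal bars are group means of 3 mice and the dotted line is background at 7.03. The open circle is propiconazole day 4 replicate 2, which reads 13.11 for Cyp2b10. Treated arrays lie beyond controls of the same day for all genes shown except Alas1 on day 30.

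Alas1, which controls the pace of heme production, rose by 2.18 ± 0.24 (SE; adjusted p 1.83e-04). It read 8.31, 8.15 and 7.83 in day 4 controls, 12.03, 11.64 and 12.17 with propiconazole and 12.18, 10.84 and 10.98 with triadimefon. On day 30 it read 10.43, 11.85 and 10.20 in controls, 12.36, 12.48 and 11.72 with propiconazole and 11.40, 11.12 and 10.75 with triadimefon. Groups did not overlap on day 4 but did on day 30, where the controls themselves were high. The changes were accordingly 3.85 and 3.24 on day 4 and 1.36 and 0.26 on day 30. The pooled change of day 30 minus that of day 4 was -2.73, with an unadjusted p of 5.10e-05 and an adjusted p of 0.186 (limma). With all arrays Alas1 alone was called of 14 measured genes of heme synthesis and breakdown, beside 2.94% of all genes higher. Without propiconazole day 4 replicate 2, Fech, which inserts iron into heme, was also called, lower by 0.21 (adjusted p 0.0319).

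Enzymes that work with or beside the P450s were called in both directions. Of 33 measured members of the list of other P450s and electron partners, 4 rose and 2 fell, beside 2.94% and 2.19% of all genes. Ephx1, the microsomal epoxide hydrolase, rose by 0.58, and the aldehyde dehydrogenases Aldh1a1 and Aldh1a7 rose too. Aldh1a1 lost its call with values as deposited (adjusted p 0.224) and with median centring (adjusted p 0.337). Cyb5a, which passes electrons to P450s, rose by 0.28, a call lost with values as deposited (adjusted p 0.119) and with median centring (adjusted p 0.238). Cyp2u1, a fatty acid hydroxylase, fell by 2.42 and is described with the falls.

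Conjugating enzymes were called higher, and none was called lower with all arrays (1 glutathione S-transferase was without propiconazole day 4 replicate 2). In the glutathione S-transferase list 5 of 20 members rose, against 2.94% of all genes. Gstt3 rose by 3.06 ± 0.34 (8.37-fold; adjusted p 1.81e-04), from 6.95 to 9.59 in controls to 9.82 to 11.58 in treated mice. Gstm3 rose by 1.63 ± 0.095 (3.09-fold; adjusted p 2.50e-07) with changes of 1.51, 1.44, 1.83 and 1.73 in the order propiconazole and triadimefon day 4, then day 30. Its treated values of 12.71 to 13.34 were near the top of the scale, and the other Gstm3 probe set above background changed by 2.94. Gstm2 and Gstm4 rose by 1.67 and 1.09, and Gstm1 by 0.24 with a call lost in 9 of 31 settings. The mu class genes form a cluster of close relatives, and their probe sets may share signal.

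Among UDP-glucuronosyltransferases, sulfotransferases and the enzymes that make their co-substrates, 6 of 21 rose, beside 2.94% of all genes. Ugt2b34 rose by 0.65, with 4 changes between 0.63 and 0.69, and Ugt2b35 by 0.46, with changes between 0.45 and 0.46. Ugdh, which makes UDP-glucuronic acid, rose by 0.80 and Papss2, which makes the sulfate donor, by 0.88 (adjusted p 0.147 with the mean of all its probe sets). The sulfotransferase Sult1d1 rose by 1.34. Sult1c2, below background in all controls, rose at least 1.75-fold, with changes of 1.45 and 2.81 with propiconazole and 0.19 and 1.11 with triadimefon. Of 10 carboxylesterases, which hydrolyse ester drugs and lipids, 3 rose: Ces2a by 0.90 ± 0.054 (adjusted p 2.82e-07), Ces2g by 0.51 and Ces2b at least 1.01-fold. Ces2b lost its call in 12 of 30 settings, 9 of them leaving out 1 array, with an adjusted p of up to 0.111 without day 4 control replicate 2.

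Of 25 transporters, 5 rose and 3 fell, beside 2.94% and 2.19% of all genes. The rises were in efflux pumps of the cell membrane and in uptake carriers. Abcc3, which exports glucuronides to blood, rose by 1.01 ± 0.094 and was called in each of the 4 changes, with controls at 10.87 to 11.42 and treated mice at 11.74 to 12.28. Abcc4, which exports conjugated bile acids and nucleotides, was below background in all controls and rose at least 1.07-fold. It was above background in 8 of 12 treated mice, and its largest change was 5.09 with propiconazole day 30. Slco1a4, an uptake carrier for organic anions, rose by 2.07 and Slc10a2, a bile acid carrier, by 1.58. Abcb1a, a drug efflux pump, rose by 1.25, although all 18 arrays were below background and no fold is given. Slc22a7, an organic anion carrier, fell by 1.26, from 10.07 to 10.48 in controls to 7.55 to 10.29 in treated mice, where propiconazole day 4 replicate 3 overlapped with controls. Abcb4, the phospholipid exporter of bile, fell by 0.40 and Abcg5, a sterol exporter, by 0.46, the latter with an adjusted p of 0.051 without day 4 control replicate 1.

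In the list of NRF2 responsive genes, the redox and detoxification program that follows electrophile stress, 5 of 21 rose and 1 fell. Over all genes 2.94% were called higher and 2.19% lower. Cbr1, a carbonyl reductase, rose by 1.10, Ugdh by 0.80 and Gsr, glutathione reductase, by 0.67. Gsr lost its call without 3 single arrays (adjusted p up to 0.0513, without day 4 control replicate 1) and with the mean of all its probe sets (0.42). Nqo1, a quinone reductase, rose by 1.45, with controls at 4.26 to 5.34 and treated mice at 5.16 to 7.32, 10 of the 12 below background. Abcc4, counted above, completes the rises. Gclc, the catalytic subunit of glutathione synthesis, was not called: its change was -0.34 (adjusted p 0.647) with all arrays and -0.06 without propiconazole day 4 replicate 2, which read 8.50 against 11.59 to 12.38 on the other 17 arrays. Osgin1 fell by 0.68.

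**Figure D3:**
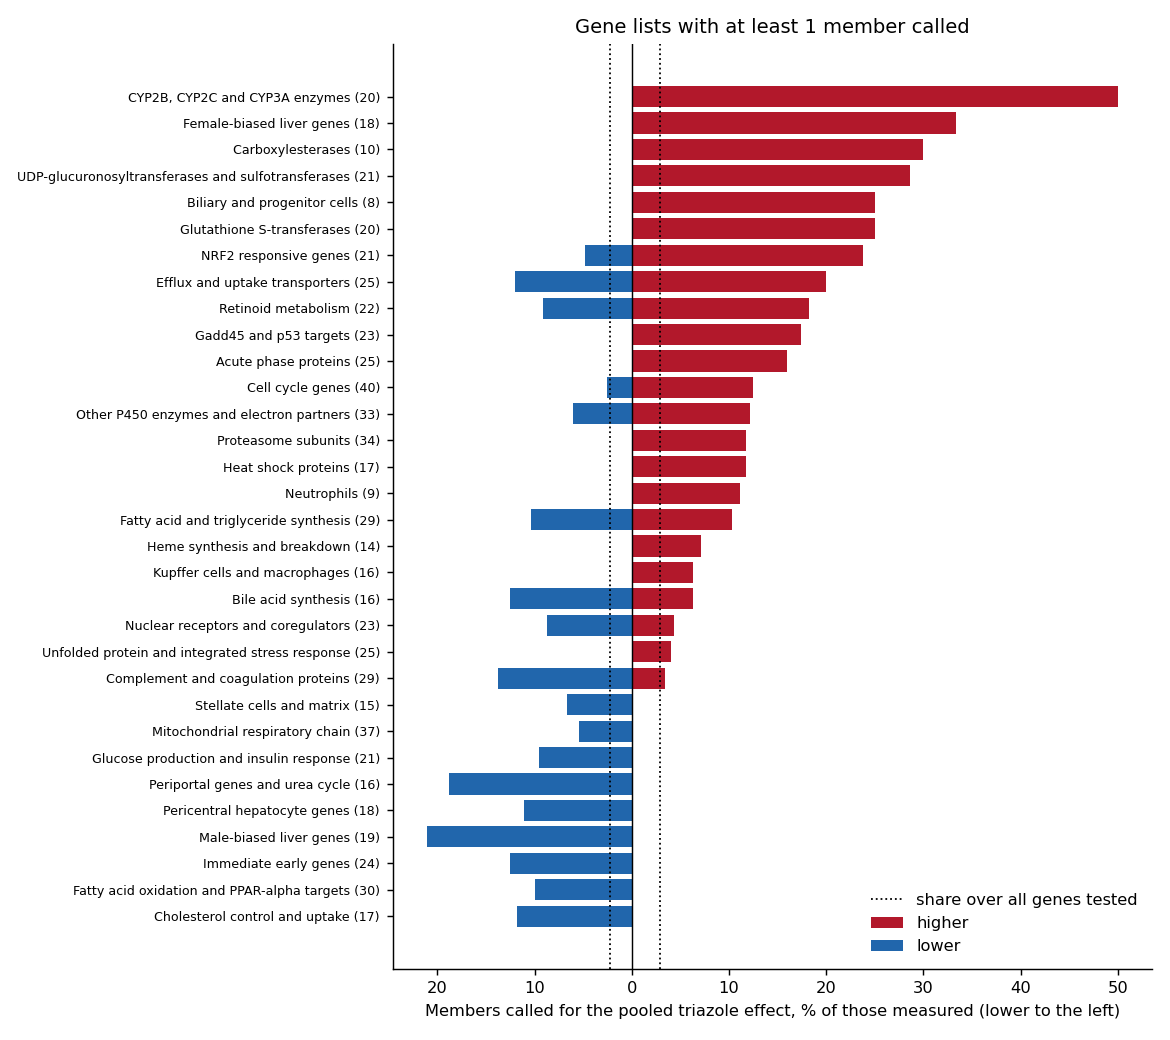
Share of the measured members of each gene list called higher (right) or lower (left) for the pooled triazole effect, for lists with at least 1 called member; the number measured follows each name. Dotted lines are the shares over all genes tested, 2.94% higher and 2.19% lower. CYP2B, CYP2C and CYP3A enzymes lead with 10 of 20 members higher, and male-biased liver genes have the largest share lower, with 4 of 19.

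Nuclear receptor transcripts were called in both directions. Of 23 receptors and coregulators, 1 rose and 2 fell, beside 2.94% of all genes higher and 2.19% lower. Ppara, the receptor that drives fatty acid oxidation in fasting, fell by 0.70 ± 0.099 (adjusted p 0.00146). On day 4 it read 10.12 to 10.30 in controls, 9.07 to 9.49 with propiconazole and 9.10 to 9.56 with triadimefon. On day 30 it read 9.83 to 10.22 in controls, 9.06 to 9.52 with propiconazole and 9.48 to 9.73 with triadimefon, so that no treated mouse reached a control of its day. Nr1h3, the oxysterol receptor, fell by 0.54, with a call lost without 7 single arrays (adjusted p up to 0.0841, without day 4 control replicate 1). Ahr, the aryl hydrocarbon receptor, rose by 0.96 (adjusted p 0.00206). Nr1i3, which encodes CAR, was not called with all arrays (-1.20 ± 0.51, adjusted p 0.188), and propiconazole day 4 replicate 2 was at the floor of 4.00 while the other 17 arrays read 7.69 to 9.94. Without that array Nr1i3 fell by 0.82 (adjusted p 0.0062) and the list's falls became 7, beside 4.24% of all genes lower. Nr1i2, which encodes PXR, had a change of -0.013 ± 0.24 (adjusted p 0.983).

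Fatty acid genes were called in both directions, beside 2.94% of all genes higher and 2.19% lower. Without propiconazole day 4 replicate 2 these shares were 4.19% and 4.24%. Elovl6, which elongates palmitate, rose by 1.48 ± 0.15 (2.80-fold; adjusted p 1.17e-04), from 8.71 to 9.17 in controls to 9.58 to 11.56 in treated mice. Thrsp, a lipogenic factor, rose by 0.89, with an adjusted p of 0.123 under the mean of all its probe sets. Over the whole synthesis list 3 of 29 rose and 3 fell (4 and 5 without propiconazole day 4 replicate 2), the falls including Dgat2 (-0.31), which completes triglyceride synthesis, and Agpat2 (-0.59), each with a call that ended in 1 or 2 settings. For Agpat2 the adjusted p reached 0.0642 without day 30 control replicate 3. Plin2, the other fall with all arrays, lost its call in 20 of 31 settings, and Fads1, a rise, in 18 of 31. Every other setting kept the call of 1 of the 3 rises and 0 of the 3 falls. For fatty acid oxidation and PPAR-alpha targets, 0 of 30 rose and 3 fell (7 without propiconazole day 4 replicate 2, when 1 rose). Cpt1a, which admits fatty acids to mitochondria, fell by 0.54 with changes between -0.57 and -0.52 in the 4 groups (adjusted p 0.00404), and no treated array reached a control of its day. Acaa2 fell by 0.37 and Crot by 0.32, the former with an adjusted p of 0.0586 without day 4 control replicate 1 and the latter lost in 10 of 31 settings.

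No cholesterol synthesis enzyme was in the shared response. Of 18 measured, none was called by limma, with or without propiconazole day 4 replicate 2, 2 had an unadjusted p under 0.05, and none had 1 sign in all 4 groups. The list's median pooled change was 0.090, and its median was 0.12 with propiconazole and 0.88 with triadimefon on day 4, and -0.38 and -0.31 on day 30. Cyp51, the mammalian homolog of the fungal target, changed by 0.68 and 0.96 on day 4 and by -0.71 and -0.42 on day 30, with a pooled change of 0.13 ± 0.16 (adjusted p 0.699). Its levels were 9.42 to 9.94 in day 4 controls and 9.85 to 10.48 in day 30 controls. Sqle, squalene epoxidase, changed by 1.35 and 1.45 on day 4 (pooled day 4 change 1.40, adjusted p 0.0328) and by -0.39 and -0.30 on day 30. The difference between the days had an adjusted p of 0.305 for Sqle and 0.303 for Cyp51.

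**Figure D4:**
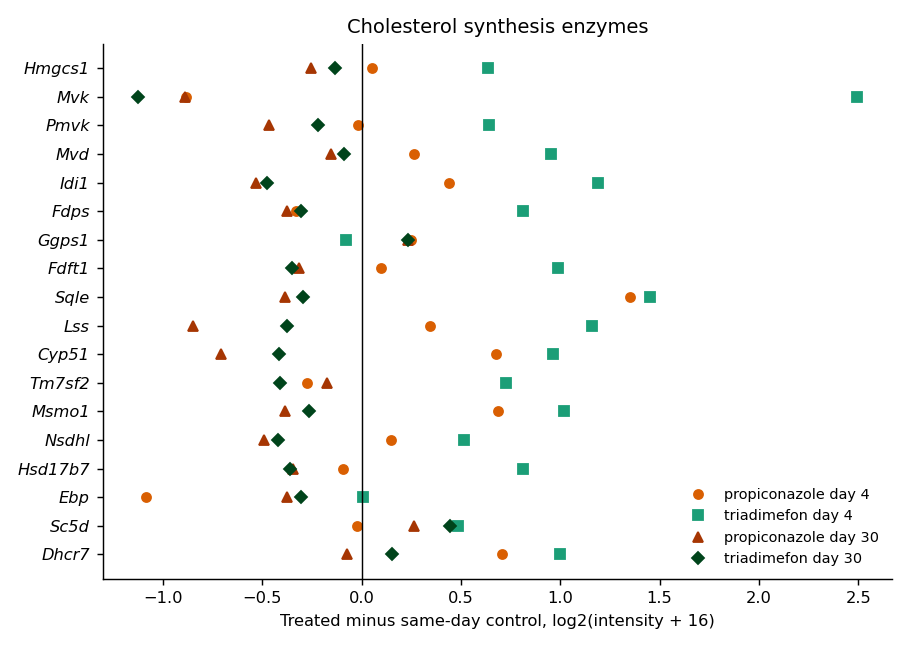
Change of 18 cholesterol synthesis enzymes against same-day controls in the 4 treated groups, on the log2(intensity + 16) scale, in pathway order from the top. Each symbol is a mean difference of 3 against 3 mice. Most day 4 triadimefon values lie to the right of 0, where the list's median is 0.88, and most day 30 values of either compound lie to the left.

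Bile acid and retinoid genes included a few strong members. Akr1d1, a reductase of bile acid synthesis, rose by 1.04 ± 0.15 (adjusted p 0.00151), with controls at 9.47 to 10.61 and treated mice at 10.51 to 11.52. Of 16 bile acid genes it was the only rise, and Cyp7b1 (-0.86) and Hsd3b7 (-0.23) fell, beside 2.94% and 2.19% of all genes. Cyp7b1 lost its call without any of 10 single arrays (adjusted p up to 0.0986, without day 30 control replicate 1), and Hsd3b7 without 2 (up to 0.0575, without the same array). Cyp7a1, the rate-limiting enzyme, was not called: its changes were 1.14 and 0.36 on day 4 and -1.40 and -1.33 on day 30. In the retinoid list 4 of 22 rose and 2 fell, beside the same shares of all genes. Cyp26a1, which degrades retinoic acid, rose by 2.45 ± 0.35 (adjusted p 0.00146), with changes of 2.39, 2.86, 1.73 and 2.83, although 1 day 30 control at 10.55 overlapped with treated mice. Rdh16f2, a retinol dehydrogenase gene, fell by 2.09, with an adjusted p of 0.0580 without day 4 control replicate 1.

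Genes with sex-biased expression in mouse liver were called in 1 direction for each sex. Of 18 measured female-biased genes 6 rose and none fell, and of 19 male-biased genes 4 fell and none rose, beside 2.94% and 2.19% of all genes. Only 4 of the 18 female-biased genes had a mean above background, against 17 of the 19 male-biased ones. In every other setting 3 of the 6 rises and 3 of the 4 falls kept their call. The female-biased rises overlap with the P450 and transporter lists: Cyp2b10, Cyp2b9, Cyp2b13, Cyp3a44, Abcc4 and Prom1. Prom1, a membrane protein gene, was below background in all controls and rose at least 1.09-fold, with a call lost without 4 single arrays (adjusted p up to 0.0612, without day 30 control replicate 2). Obp2a, an odorant-binding lipocalin, fell by 2.73 ± 0.43 (adjusted p 0.00289) and Susd4, a complement regulator, by 2.22 ± 0.30 (adjusted p 8.55e-04). On day 4 Obp2a read 7.06 to 8.33 in controls and 5.17 to 8.48 in treated mice. On day 30 it read 8.32 to 10.97 in controls, 4.00 to 4.05 with propiconazole and 4.89 to 5.67 with triadimefon. The arrays overlapped on day 4 and were far apart on day 30, and the same held for Susd4, with day 30 changes of -4.71 and -2.74. The difference between the days had unadjusted p-values of 1.18e-04 for Obp2a and 1.29e-04 for Susd4, and an adjusted p of 0.246 for each. Nudt7, a peroxisomal hydrolase, fell by 0.67. None of 18 measured genes of the growth hormone and IGF axis was called by limma, and 5 had an unadjusted p under 0.05.

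Acute phase proteins, secreted by hepatocytes in inflammation, rose in 4 of 25 cases, beside 2.94% of all genes. Those that rose varied widely between mice. Lcn2, a siderophore-binding lipocalin, rose by 4.21 ± 0.89 (adjusted p 0.0152). On day 4 it read 5.08 to 7.16 in controls, 9.08, 13.35 and 5.67 with propiconazole and 8.90, 7.99 and 5.88 with triadimefon. On day 30 it read 4.00 to 5.18 in controls, 8.79 to 12.52 over the 6 treated mice. The 1 high value of 13.35 was propiconazole day 4 replicate 2, and the pooled change without it was 3.71 (adjusted p 0.00704). Orm3, an orosomucoid, was below background in all controls and rose at least 2.60-fold, with 10 of 12 treated arrays above background. Orm2 rose by 2.63 with a call lost in 15 of 31 settings, and Crp by 0.44, lost without 2 single arrays (adjusted p up to 0.0575, without day 4 control replicate 1). The other 21 members, including the fibrinogen chains and albumin, were not called.

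Markers of leukocytes were read beside these values. Over all genes 2.94% were called higher and 2.19% lower. S100a8, a calcium-binding protein of neutrophils, rose at least 4.73-fold (adjusted p 0.0176). It read 4.45 to 5.71 in controls, while propiconazole gave 11.28, 12.54 and 6.56 on day 4 and 11.95, 12.10 and 5.60 on day 30. Triadimefon gave 7.76, 7.11 and 5.49 on day 4 and 9.68, 10.52 and 10.64 on day 30, so 1 mouse in each of 3 groups stayed near controls. It was the only 1 of 9 neutrophil markers called, and Csf3r was at the floor of 4.00 on every treated array and Camp on all but 1. The summed level of the 9 markers had group medians of 8.90 and 9.29 in controls of days 4 and 30, 11.49 and 12.20 with propiconazole and 9.26 and 10.92 with triadimefon. That sum is dominated by S100a8: the median pooled change over the 9 markers was -0.0050, and S100a9, its usual partner, changed by 0.87 without a call. Of 16 Kupffer cell and macrophage markers only Adgre1 rose (0.58, lost in 19 of 31 settings). The summed level of the 16 had day 30 medians of 13.12 in controls, 13.63 with propiconazole and 14.06 with triadimefon. On day 4 the medians were 12.89, 12.94 and 12.49 in the same order. None of 12 lymphocyte, 14 sinusoidal endothelial or 6 red cell markers was called by limma, and 0, 3 and 1 of them had an unadjusted p under 0.05. On day 30 the summed level of the lymphocyte markers was 10.05 to 10.74 with propiconazole, 9.09 to 10.42 with triadimefon and 9.50 to 9.86 in controls. On day 4 it was 8.74 to 9.89, 9.27 to 9.63 and 8.80 to 9.42 in the same order. Only 2 of the 12 lymphocyte markers had a mean above background. The stellate list had 1 fall (2 without propiconazole day 4 replicate 2), Reln (-0.54), and the biliary list 2 rises, Sox9 (1.28) and Epcam (0.36). Reln and Epcam lost their calls in 18 and 13 of 31 settings, and Sox9 with the mean of all its probe sets (adjusted p 0.415). The part of these cells in the changes above was not tested.

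Gadd45b, a stress-induced gene linked to DNA demethylation and to CAR driven growth, was among the largest rises. It was at 4.00 to 4.08 in all 6 controls and at 5.19 to 9.95 in treated mice, a rise of at least 2.19-fold (adjusted p 3.78e-05), and its changes were 4.18, 3.23, 5.21 and 3.98. Both Gadd45b probe sets that reached background had a higher mean in treated mice. In the list of Gadd45 and p53 targets 4 of 23 rose and none fell, beside 2.94% and 2.19% of all genes. The rises were Gadd45b, Ephx1, the death receptor Fas (0.79) and Trp53inp1 (0.55). Fas lost its call without 2 single arrays (adjusted p up to 0.0581, without day 4 control replicate 2) and Trp53inp1 in 16 of 31 settings. Of 40 cell cycle genes, 5 rose and 1 fell, beside the same shares of all genes. Only 10 of the 40 had a mean above background. Of the 5 rises 1 kept its call in every other setting, and the fall did not. Ccna2, cyclin A2, was below background in all controls (6.12 to 6.55) and rose at least 1.08-fold, reading 6.84 to 7.63 in treated mice without overlap (adjusted p 0.00206). Mcm2, of the replication helicase, rose by 1.25 with 4 of 12 treated arrays above background and lost its call without 4 single arrays (adjusted p up to 0.0876, without day 4 control replicate 2). Hells, a chromatin helicase of replicating cells that is on none of these lists, rose at least 1.75-fold (adjusted p 6.17e-04). Mki67, the usual proliferation marker, was not called (0.64, adjusted p 0.292), and only 1 of 18 arrays was above background for it, propiconazole day 4 replicate 2.

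Stress genes were called in small numbers from several lists, beside 2.94% of all genes higher. Dnajb9, a chaperone of the endoplasmic reticulum, rose by 0.78 ± 0.13 (adjusted p 0.00362), and its changes were 1.61, 0.78, 0.21 and 0.51. With all arrays it alone was called of 25 unfolded protein and integrated stress genes, and without propiconazole day 4 replicate 2 the chaperones Pdia4 and Hspa5 rose too, for 3 rises. Among 17 heat shock genes 2 rose, Hspa4l (0.75) and Dnaja1 (0.54), and 1 rose without propiconazole day 4 replicate 2. Dnaja1 lost its call in 21 of 31 settings, and Hspa4l without 3 single arrays (adjusted p up to 0.0568, without day 4 control replicate 1). Hspa1b, an inducible HSP70, changed by 2.53 and 1.18 on day 4 and 0.38 and 0.71 on day 30 and missed the threshold (1.20 ± 0.35, adjusted p 0.0610). Proteasome subunits rose in 4 of 34 cases by 0.25 to 0.59, and each of the 4 lost its call in at least 1 setting. Psmd1 did so without day 30 control replicate 3 (adjusted p 0.0515), Psma1 without 5 single arrays (up to 0.0769, day 30 control replicate 2), Psmd14 without 5 (up to 0.0777, day 4 control replicate 2) and Psma3 in 18 of 31 settings. Of 24 immediate early genes 3 fell, beside 2.19% of all genes lower (without propiconazole day 4 replicate 2 4 fell and 1, Jun, rose). Nab2, a corepressor of EGR factors, fell by 1.68 ± 0.25 (adjusted p 0.00206), with day 4 changes of -2.40 and -2.29 and day 30 changes of -1.16 and -0.87. Egr1 fell by 2.17, with day 4 controls at 9.01 to 10.38 and treated mice at 5.20 to 7.43. Its day 30 controls were 5.71, 5.61 and 9.92, and its call was lost without any of 11 single arrays (adjusted p up to 0.0960, without day 4 control replicate 1). Klf10 was below background in all treated mice and fell at least 1.04-fold, a call lost without 4 single arrays (adjusted p up to 0.0573, without the same control).

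Among falls in which treated and control arrays did not overlap on either day, the largest came from genes of varied function. Obp2a, Susd4, Egr1 and Rdh16f2, described above, fell by more than Enho but overlapped on at least 1 day. Cyp2u1 fell by 2.42 ± 0.28 (adjusted p 2.67e-04), with all 6 controls but only 1 of 12 treated arrays above background, so no fold is given. It read 7.50 to 8.38 in day 4 controls and 5.28 to 7.19 in treated mice, and 7.81 to 8.41 in day 30 controls and 4.04 to 5.46 in treated mice. Enho, which encodes the metabolic peptide adropin, fell by 2.08 ± 0.27 (adjusted p 6.54e-04), with 7 of 12 treated arrays above background, and its changes were -1.31, -0.69, -3.65 and -2.67. Of the 3 Enho probe sets above background, 2 fell. Sox3, an SRY-related transcription factor, was below background in all treated mice and fell at least 1.19-fold (adjusted p 0.00146). Ttc39c fell by 1.35, St6galnac6, a sialyltransferase, by 1.30, Cela1, an elastase, by 1.19 and Myh14, a nonmuscle myosin, by 1.14. St6galnac6 read 8.24 to 9.20 in controls and 6.43 to 8.10 in treated mice. Myh14 lost its call without day 4 control replicate 1 (adjusted p 0.0556) or day 30 control replicate 3. Below these came Tmem63a, Atg101, an autophagy factor, Card10, a scaffold of NF-kappa-B signalling, Glt28d2, Ppm1m, a protein phosphatase, Prodh2, a hydroxyproline dehydrogenase, and Rdm1, with pooled changes between -1.09 and -0.84. Tmem63a lost its call in 18 of 30 settings, among them the 1 without propiconazole day 4 replicate 2 (adjusted p 0.0563), and Rdm1 in 15 of 31. Atg101 lost it without 3 single arrays (adjusted p up to 0.0559, without day 4 control replicate 2).

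The other rises that met the naming rule were Fam71f1 (1.83), Ikbke, an NF-kappa-B and interferon pathway kinase (at least 1.74-fold), Nsl1, a kinetochore subunit (1.53), and Csnk1g1, a casein kinase (at least 1.09-fold). Fam71f1 read 5.24 to 7.97 in controls and 8.26 to 9.29 in treated mice, with 1 low control on each day. Called in each of the 4 changes taken alone were 11 genes, all higher (0.0629% of all genes): Abcc3, Acp2, Ces2a, Cyp2b10, Cyp2c50, Cyp2c54, Cyp2c55, Gstm3, Mlec, Ugt2b34 and Wdr18. Mlec, a lectin of the endoplasmic reticulum that binds glucosylated glycans, rose by 1.02, Acp2, a lysosomal phosphatase, by 0.63 and Wdr18, a ribosome biogenesis factor, by 1.51. Wdr18 lost its pooled call with the mean of all its probe sets (adjusted p 0.221). No gene was called lower in each of the 4 changes by limma, 60 were lower with an unadjusted p under 0.05 in each, and 1 was called without propiconazole day 4 replicate 2 (0.00572%), when 0.0801% were called higher. Under the same unadjusted threshold 124 were higher.

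Lists of hepatocyte zone and secretory genes contained falls. Over all genes 2.19% were called lower, and 4.24% without propiconazole day 4 replicate 2. Of 16 periportal and urea cycle genes 3 fell and none rose, led by Hal, histidine ammonia-lyase (-0.77, adjusted p 0.0102). Of 18 pericentral genes 2 fell (without propiconazole day 4 replicate 2 4 fell and 1 rose), Rnf43, a Wnt feedback ligase (-1.03), and Glul, glutamine synthetase (-0.33), whose triadimefon day 30 change was 0.037 and which lost its call in 15 of 31 settings. Pcx, pyruvate carboxylase, fell by 0.52, with an adjusted p of 0.0589 with values as deposited and 0.178 with the mean of its probe sets. Among 29 complement and coagulation proteins 4 fell (6 without propiconazole day 4 replicate 2) and 1 rose, with a median of -0.18. F11, coagulation factor XI, fell by 0.72 (adjusted p 0.0124) and F5 by 0.55, the latter lost without 6 single arrays (adjusted p up to 0.0669, without day 4 control replicate 2). Respiratory chain subunits had 2 falls among 37 (6 without propiconazole day 4 replicate 2), Sdhd (-0.44) and Ndufv1 (-0.29, adjusted p up to 0.0934 over all settings). In cholesterol control and uptake, Scap (-0.77) and Lrp1 (-0.74) fell of 17 measured, with calls lost in 13 and 7 of 31 settings. None of 17 circadian clock genes was called by limma, 5 had an unadjusted p under 0.05, and 1 was called without propiconazole day 4 replicate 2. Every other setting kept the call of 1 of the 3 periportal falls and 1 of the 2 pericentral. The same held for 1 of the 4 complement and coagulation falls and 1 of the 2 respiratory.

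The days were compared through the pooled change of each day, which used separate controls. On day 4, 133 genes were higher (0.761%) and 76 lower (0.435%), and on day 30, 116 were higher (0.664%) and 77 lower (0.441%). Called higher on both days were 39 genes, 29.3% of the day 4 list and 33.6% of the day 30 list. Called lower on both were 7 genes, 9.21% and 9.09%. No gene was called in opposite directions. Of the 133 genes higher on day 4, 120 had a positive day 30 change, and of the 116 higher on day 30, 103 had a positive day 4 change. For the lower genes these counts were 60 of 76 and 63 of 77. The day lists moved strongly with single arrays. The day 4 total of 209 became 21, 41 and 137 without day 4 control replicates 1, 2 and 3, and 65 and 120 without triadimefon day 4 replicates 1 and 2. It became 393 and 674 without propiconazole day 4 replicates 2 and 3. The day 30 total of 193 became 60, 52 and 76 without day 30 control replicates 1, 2 and 3 and 100 without triadimefon day 30 replicate 1. It became 724 and 358 without propiconazole day 4 replicates 2 and 3, arrays of the other day that enter its estimate of spread. The change differed between the days for 1 gene, Fnip2, which encodes a folliculin partner in nutrient signalling (adjusted p 0.0364, limma; 0.00572% of all genes), while 1284 genes had an unadjusted p under 0.05. The number of such genes was 0 without day 4 control replicate 2, triadimefon day 4 replicate 1 or any 1 of the 6 treated day 30 arrays. It was 5 without triadimefon day 4 replicate 2, 3 without day 30 control replicate 2, and 2 without day 4 control replicate 3, any other day 4 array of propiconazole than replicate 2, triadimefon day 4 replicate 3 or day 30 control replicate 1. Fnip2 itself kept its call without 8 of the 18 single arrays. It lost it without day 4 control replicates 1 or 2, triadimefon day 4 replicate 1, day 30 control replicate 3 or any 1 of the 6 treated day 30 arrays (adjusted p up to 0.119, without day 4 control replicate 2). Fnip2 read 8.56 to 8.75 in day 4 controls and 8.10 to 8.79 in treated mice, and 7.46 to 7.85 in day 30 controls and 8.67 to 8.84 in treated mice. Every day 30 control was thus below every day 4 control, while the treated mice of the 2 days overlapped.

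**Figure D5:**
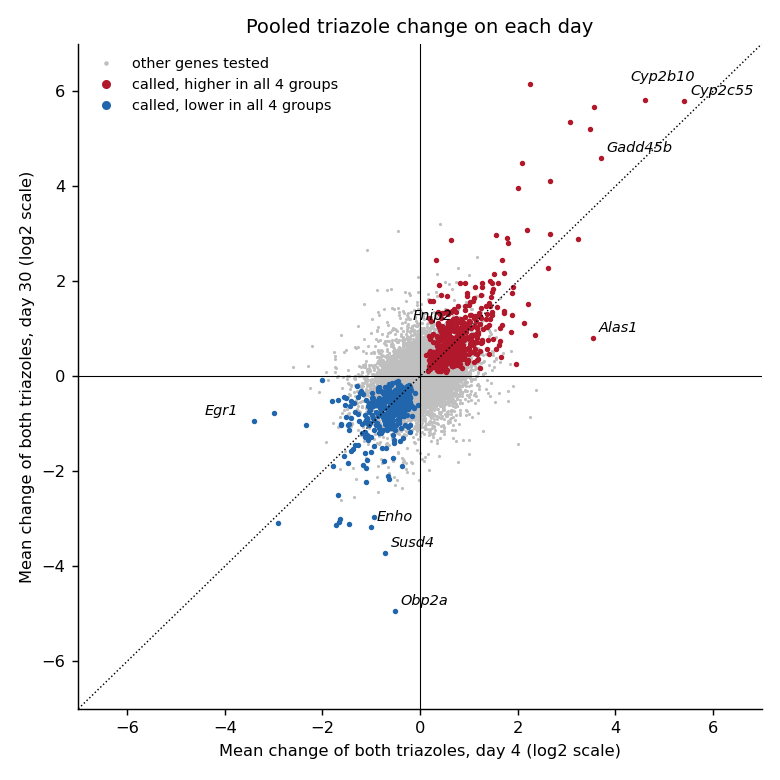
Mean change of both triazoles on day 4 (horizontal) and day 30 (vertical) for each of 17477 genes, on the log2 scale; red and blue points are the 492 and 364 genes called with 1 sign in all 4 groups, and the dotted line marks equal changes. Cyp2c55 lies close to that line at 5.41 and 5.80, Alas1 lies below it and Obp2a and Susd4 are far lower on day 30.

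Each compound was also read against its controls alone. Against same-day controls, propiconazole day 4 called 142 genes higher and 81 lower (0.812% and 0.463%) and triadimefon day 4 called 16 and 4 (0.0915% and 0.0229%). On day 30 the counts were 185 and 133 for propiconazole (1.06% and 0.761%) and 26 and 12 for triadimefon (0.149% and 0.0687%). The compounds share controls on each day, and their doses differed, so no difference between them was tested. Elovl6 changed by 2.27 with propiconazole day 30 and by 1.11 to 1.37 in the other 3 groups.

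Phenobarbital, given at 850 ppm (97.2 ± 5.9 mg/kg/day) in a separate experiment with 5 treated and 5 control mice on each day, offered a comparison with its own controls, added after the data were seen. The experiment and the batch of arrays cannot be told apart, so only changes from own controls were set side by side. Of the 492 genes with a shared rise, 38.4% were also called higher under phenobarbital and 0 lower, against 4.69% of all genes called higher. Of the 364 with a shared fall, 105 (28.8%) were called lower and 0 higher, against 4.51%. The P450 rises were present in both: under phenobarbital Cyp2c55 rose by 5.16, Cyp2c65 by 5.45, Cyp2b10 by 3.82, Cyp2c37 by 2.60 and Gstm3 by 1.80. Some genes of the shared response were not called under phenobarbital. There Cyp2u1 changed by -0.30 (adjusted p 0.449), Enho by -0.28 (adjusted p 0.419), Susd4 by -0.30 (adjusted p 0.496) and Elovl6, a rise, by 0.20 (adjusted p 0.634). A fit of all 38 arrays tested the triazole change minus the phenobarbital change and called 171 genes higher (0.978%) and 138 lower (0.79%). The difference was 1.28 for Elovl6 (adjusted p 0.0142), -2.12 for Cyp2u1 (adjusted p 0.00336), -1.80 for Enho (adjusted p 0.00411) and -1.92 for Susd4 (adjusted p 0.00772). It was 1.40 for Cyp2b10 (adjusted p 0.0428), which was called higher under the triazoles. Triazole values of Cyp2b10 lay near the top of the scale, and its conazole control means were 8.21 on day 4 and 7.11 on day 30. How far either enters this difference was not tested. Spread in this fit came from both experiments together, and fitting all 38 arrays raised the pooled triazole calls from 896 to 3183. The difference was 0.44 for Cyp2c55 (adjusted p 0.404), -0.83 for Cyp2c65 (adjusted p 0.192), 0.23 for Cyp2c37 (adjusted p 0.815) and -0.17 for Gstm3 (adjusted p 0.522). These genes were named for the size of their triazole change, which enters the difference.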

How the data were processed

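Liver RNA of 38 male mice was hybridised to Affymetrix mouse 430_2 arrays, 1 mouse per array, from 4 ug of total RNA per the labels' protocols. The deposited values are 1 linear intensity per probe set and array. No source used here names the software that summarised probes, and 23.0% of the values on the 18 conazole arrays were below 0. The number of arrays, 3 in each group, limits the precision. Arrays were quantile normalized over all 38, values below 0 were set to 0, and log2(intensity + 16) was taken. The log2 values are thus computed from the authors' deposited intensities. Each of 17477 genes was read from its brightest probe set on average, among 34958 probe sets with 1 symbol; 932 had several symbols, 9211 had none listed, and 717 genes constant over the arrays were left out. limma 3.58.1 in R 4.3.3 fitted 6 group means with an intensity trend, and p-values were adjusted over all genes by Benjamini-Hochberg. Where all arrays of a side were below background, the fold is a lower bound. The p-values measure the spread between these mice. The fit was tested on simulated data. Named genes were the 14 that rose most and the 14 that fell most among those that met the naming rule. The rule required a call, 1 sign, no overlap on either day and a level above background on at least 1 side. Also named were genes whose change differed between the days and up to 6 called members of each of 39 lists. Members that stand for a list's role were named too. From the genes ranked by size, clone names and probe sets ending in _x_at were left out. Probe sets ending in _s_at were kept, among them those of Cyp2b10, Cyp2c65 and Gstm3. The members and lists were chosen with earlier results of these data known. The alternatives were other normalizations, pseudocounts of 4 and 64, a filter on dim genes, the mean of all probe sets, other models, and leaving out arrays. The phenobarbital arrays had a fit of their own, added after the data were seen. Promoter sequences are from RefSeq.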

Additional observations from a re-analysis of the deposited data

Results flagged for a closer look

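The pooled change of Fnip2 on day 30 minus that on day 4 was 1.34, and the difference itself passed limma's test (adjusted p 0.0364). It was called in 15 of 30 other settings, with a change of 1.16 to 1.42 and an adjusted p of 5.37e-05 to 0.349, and without 8 of the 18 single arrays. The changes were -0.41 with propiconazole and -0.14 with triadimefon on day 4, and 1.08 and 1.05 on day 30. The Gapdh 3′ control probe set exceeded the 5′ one by 6.39 log2 units on propiconazole day 4 replicate 2, in probe sets that no comparison used.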

How the results depend on the processing

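Of 131 called genes checked, 66 kept their call in every one of the 31 settings that gave a value and 131 kept their direction. The pooled total of 896 became 522 with values as deposited, 3183 when all 38 arrays were fitted together and 1613 with array weights, and the shared total of 856 became 491, 2722 and 1493. Of the 856 genes, 849 were called again with all 38 arrays. The day 4 total of 209 became 123 as deposited, 129 with median centring, 1797 with all 38 arrays and 314 with array weights. The day 30 total of 193 became 100 as deposited, 1711 with all 38 arrays, 960 with array weights and 905 without the 3 propiconazole day 4 arrays. The single gene that differed between the days became 0 as deposited, 0 with median centring, 222 with all 38 arrays, 0 without an intensity trend and 4 with array weights. Leaving out 1 array gave 419 to 1474 pooled, 404 to 1370 shared, 21 to 674 on day 4, 52 to 724 on day 30 and 0 to 5 for the difference between the days. The cause of these shifts was not tested. A model of day plus treatment gave only the pooled result, and leaving out the 3 propiconazole day 4 arrays gave no shared direction.

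Replicate numbers were not used to pair the mice in the main fit. Same-numbered arrays of different groups had residual correlations of -0.13 to 0.19 (median 0.0078), with 8 of 45 over 0.1. With the replicate number as a block, 844 genes were called for the pooled effect, 807 for the shared direction, 194 on day 30 and 0 for the difference between the days.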
